A study of Arabidopsis thaliana with 27 samples.

Results

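The transcriptome of pif457 seedlings after 25 h of low red to far-red light ratio (LRFR) was compared with that of pif457 seedlings kept in high red to far-red ratio (HRFR). The libraries were chosen by their labels, 3 of pif457 LRFR 25 h and 3 of pif457 HRFR, that is 6 of the 27 libraries of the series, and 20680 of the 34262 annotated genes had enough reads to be tested. pif457 is a triple mutant (pif4-101 pif5-3 pif7-1) that carries lesions in PIF4, PIF5 and PIF7, and Col-0 is the wild type whose own response to 25 h of LRFR is used here for comparison. All seedlings were 7 days old, whole seedlings were sampled on sucrose-free medium, and every group was collected at the same time of day. HRFR seedlings stayed in white light, LRFR seedlings had a lowered red to far-red ratio for the last 1 h or the last 25 h, and the longer treatment included a night. The whole series crosses 3 genotypes, the third being hfr1-101, with these 3 light conditions, each with 3 libraries (R1 to R3). The question was which part of the prolonged response remained in seedlings with mutated PIF4, PIF5 and PIF7.

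Plants read a low red to far-red ratio as a sign of neighbours. Phytochrome B, the main receptor, is active in red-rich light and then restrains PHYTOCHROME INTERACTING FACTORs, basic helix-loop-helix proteins that bind E-box and G-box sequences. When far-red light is added the restraint is lifted and PIFs, PIF7 above all, switch on genes of transcriptional regulation, auxin synthesis and cell elongation. Other PIF family members, among them PIF1 and PIF3, are intact in pif457. Far-red light also changes what photosynthesis can use, and over a day the amounts of sugars, of light-harvesting proteins and of phenolic sunscreens can change with the light regime.

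The 6 pif457 libraries held 25.9 M to 31.5 M reads in genes (M, 1e6), and levels are given in CPM, the reads of a gene per 1e6 reads of its library after scaling with TMM factors. Genes were called when the adjusted p of edgeR's quasi-likelihood test was below 0.05 and the log2 fold change (log2FC) was beyond 0.6 in either direction. Replicates of pif457 lay close together, at -6.05 to 9.92 on the leading axis of deviations from the group means, whereas R1 of Col-0 HRFR and R1 of Col-0 LRFR 25 h lay apart at 32.0 and 40.1. The main counts of called genes are therefore given with and without both of these libraries where they moved. Medians, fold changes and interaction values that use Col-0 are given with both libraries included. Root, guard cell, stomatal lineage, phloem and dividing-cell marker lists had no called member, where 0.788% of all tested genes were called. The summed level of 17 root markers was 3364 to 3692 CPM in HRFR and 3121 to 3563 CPM after 25 h. The phloem sum was lower without overlap (281.2 to 307 CPM, then 255.5 to 271 CPM). The guard cell sum was higher without overlap (85.7 to 87.4 CPM, then 91.9 to 92.8 CPM). The stomatal lineage and dividing-cell sums overlapped between the groups. Bulk RNA of whole seedlings cannot tell fewer cells of a type from less RNA per cell.

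The reads over the mutated genes changed little with light. PIF4 was at 51.1, 51.4 and 51.3 CPM in pif457 HRFR R1 to R3 and at 47.2, 47.1 and 46.2 CPM after 25 h (log2FC -0.13, SE 0.07, adjusted p = 0.533). PIF5 was at 13.4, 11.6 and 13.8 CPM and then at 11.3, 11.2 and 12.3 CPM (log2FC -0.15, adjusted p = 0.681). PIF7 was at 3.88, 3.12 and 2.83 CPM and then at 2.49, 3.18 and 2.94 CPM (log2FC -0.19, adjusted p = 0.673). In HRFR and after 25 h each of the 3 genes was lower in every pif457 library than in any Col-0 library of the same light condition, in keeping with the genotype labels. In HRFR itself pif457 differed from Col-0 at 354 genes (1.71% of genes tested), 122 higher (0.59%) and 232 lower (1.12%). This genotype comparison was called at adjusted p below 0.05 with no fold threshold, and 174 genes were also beyond 0.6 in log2FC. The count of 354 became 94, 104, 119 and 184 without pif457 HRFR R2, pif457 HRFR R3, Col-0 HRFR R1 and Col-0 HRFR R3.

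Long low R:FR changed 163 genes in pif457, 81 up and 82 down, or 0.788% of the genes tested (0.392% up and 0.397% down). The called increases ranged from 0.64 to 4.43 in log2FC with a median of 1.00, and the called decreases from -0.61 to -1.83 with a median of -0.79. The increases included small auxin-induced SAUR genes, early shade genes such as PIL1, the flowering signal FT and flavonoid synthesis enzymes. The decreases included genes of sugar starvation and branched-chain amino acid breakdown, NIA1 of nitrate assimilation, the antenna gene LHCB1.4 and the regulator MYBL2. The median log2FC over all tested genes was -0.008, and 2281 genes had an unadjusted p below 0.05. All 163 called genes had libraries that did not overlap between the groups, while over all genes 11.8% were higher and 13.8% lower without overlap. The count was 98 without pif457 LRFR 25 h R2, 321 when only these 6 libraries were fitted, and 245 without both Col-0 libraries that lay apart.

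**Figure D1:**
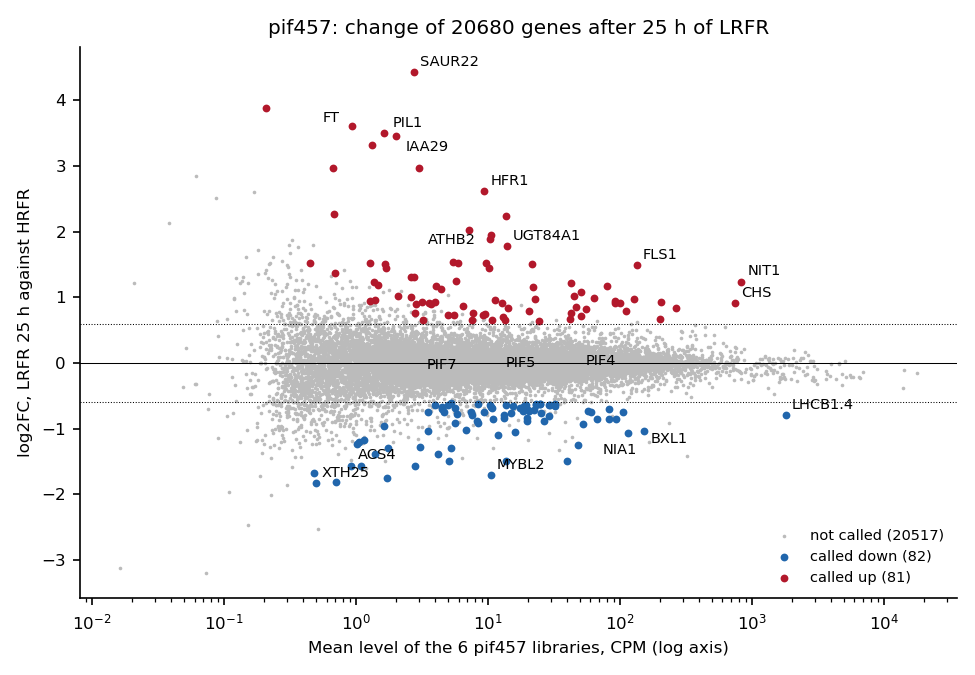
Log2FC of pif457 LRFR 25 h against HRFR (vertical axis) plotted against the mean level of each gene over the 6 libraries in CPM (log scale, horizontal axis), 1 point per gene, with 81 genes called up, 82 called down and the others in grey. The increases reach further, to 4.43 for SAUR22, than the decreases do, to -1.83, and 1 gene with no read in these libraries is not drawn.

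Part of the early shade program still rose in pif457. Of 18 shade marker genes, 6 were called up and none down, where 0.392% of all tested genes were called up. The list's median log2FC was 0.24 against -0.008 over all genes. PIL1 (chr2:19295431-19297858), a basic helix-loop-helix relative of the PIFs, was at 0.329, 0.166 and 0.294 CPM in HRFR R1 to R3 and at 3.01, 2.94 and 3.09 CPM after 25 h. The 25 h libraries all lay far above the HRFR libraries, a rise of 11.3-fold (log2FC 3.50, SE 0.34, adjusted p = 1.91e-05). In reads, PIL1 rested on 23 in the 3 HRFR libraries together and 278 after 25 h.

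IAA29, an Aux/IAA repressor of auxin signalling, rose in the same way. Its levels were 0.362, 0.266 and 0.367 CPM in HRFR and 3.6, 3.94 and 3.46 CPM after 25 h (log2FC 3.46, SE 0.27, adjusted p = 1.62e-06). Every 25 h library was above every HRFR library, and IAA29 was the single called member among 27 tested Aux/IAA genes, whose median log2FC was 0.01. HFR1, an atypical helix-loop-helix protein that forms inactive dimers with PIFs, was at 3.35, 2.49 and 1.95 CPM in HRFR and at 18, 15.2 and 15.2 CPM after 25 h (log2FC 2.62, SE 0.20, adjusted p = 1.62e-06). The groups did not overlap, and the pif457 level after 25 h was in the range of Col-0 seedlings that had seen no LRFR (18.4, 13.7 and 14.9 CPM).

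ATHB2, a homeodomain-leucine zipper factor of class II, was at 4.60, 4.22 and 4.52 CPM in HRFR and at 17.0, 16.6 and 15.8 CPM after 25 h. It was thus higher in each 25 h library (log2FC 1.88, SE 0.13, adjusted p = 5.5e-07). PRE1, a helix-loop-helix growth factor gene, and RTFL18, which encodes a small peptide, were called with values near the threshold (log2FC 0.65, adjusted p = 0.0438 and log2FC 1.52, adjusted p = 0.0476). With any 1 of the 6 libraries left out, 4 shade markers were called in place of 6, and with the replicate number as a block 5 were. The 12 others included HAT2 (log2FC 0.07) and HAT3 (0.05), 2 further class II homeodomain genes, YUC8 (0.26) and YUC9 (-0.25) of auxin synthesis, and CKX5 (0.21), a cytokinin oxidase.

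**Figure D2:**
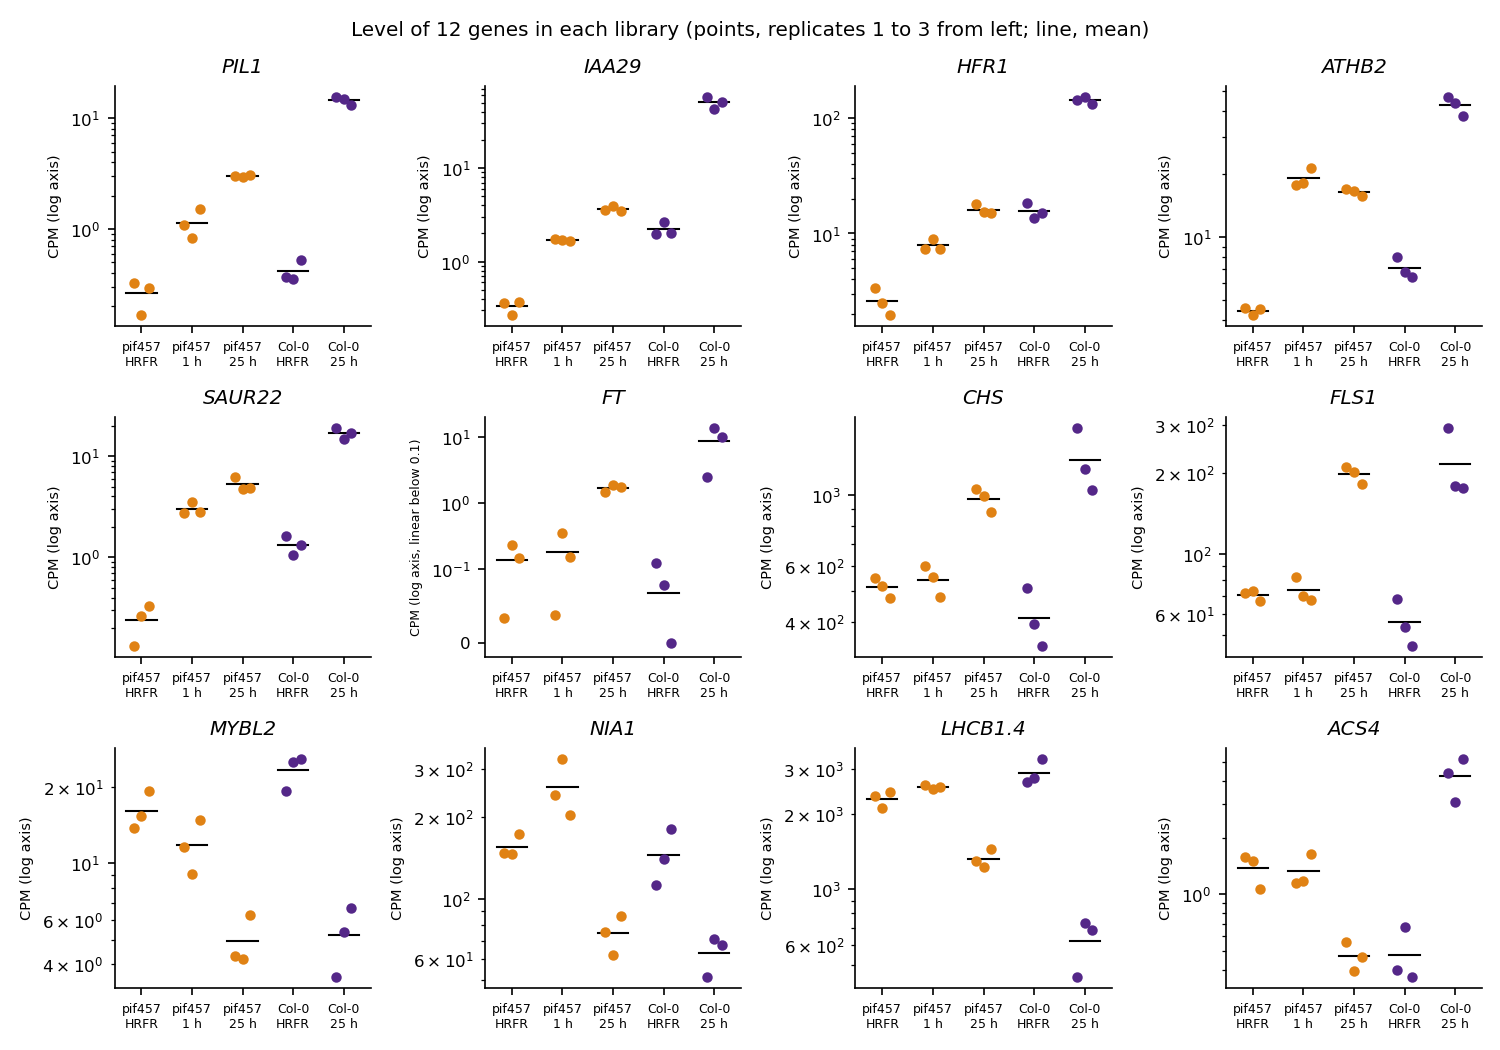
Level of 12 called genes in CPM (log axis, linear below 0.1 for FT), 1 point per library for replicates 1 to 3 from the left and a line at the mean, in pif457 (orange) in HRFR and after 1 h and 25 h of LRFR and in Col-0 (purple) in HRFR and after 25 h. In each of the 12 the pif457 HRFR and 25 h points are apart, for example 0.166 to 0.329 CPM against 2.94 to 3.09 CPM for PIL1.

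SAUR genes encode short proteins that promote cell expansion by activating plasma-membrane proton pumps. Of 79 SAUR symbols, 60 genes were tested, 6 were called up and none down, where 0.392% of all tested genes were called up. The median log2FC of the 60 was 0.05. SAUR22, which had the largest called change of all genes, was at 0.132, 0.266 and 0.331 CPM in HRFR and at 6.24, 4.73 and 4.89 CPM after 25 h. The groups were widely apart (log2FC 4.43, SE 0.27, adjusted p = 1.6e-07, on 21 and 482 reads). SAUR19 (3.31), SAUR23 (2.98), SAUR24 (1.52), SAUR20 (0.92) and SAUR29 (0.65) were the others. AT5G18030, annotated as SAUR-like and lying among them, was called up too (log2FC 1.45, adjusted p = 3.66e-06). It was matched to none of the 79 symbols, so the counts of 60 tested and 6 called leave it out. The members from SAUR19 to SAUR24 sit together on chromosome 5 and are almost copies of each other, so that reads can be shared or lost between them and the value of a single copy is uncertain. The called set was thus a cluster of neighbours plus SAUR29 on chromosome 3, and not the family at large.

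Among the gene lists chosen, the flavonoid enzymes had the most called members. Flavonoids are phenolic compounds made from phenylalanine; chalcone synthase (CHS) takes the first committed step, chalcone isomerase (CHI) with its helper CHIL, F3H and TT7 shape the flavonoid skeleton, and FLS1 makes flavonols. Of 17 tested enzymes of this list, 7 were called up and none down in pif457 after 25 h, where 0.392% of all tested genes were called up. The median log2FC of the 17 enzymes was 0.46. In Col-0 11 of them were called up after 25 h, with a list median of 0.88. Their summed level was 1991 to 2295 CPM in HRFR and 3087 to 3521 CPM after 25 h. The number called up was 7 under each alternative setting and with each library left out, and 1 enzyme was called down when the 6 libraries were fitted alone or both outlying Col-0 libraries were left out.

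FLS1 was at 71.7, 72.5 and 66.9 CPM in HRFR and at 211, 202 and 182 CPM after 25 h. All 25 h libraries were above all HRFR libraries (log2FC 1.5, SE 0.18, adjusted p = 0.000187). CHS, the most abundant of the called enzymes, was at 550, 516 and 474 CPM and then at 1039, 990.5 and 882 CPM (log2FC 0.92, SE 0.16, adjusted p = 0.0044). Here too the groups were apart. TT7, flavonoid 3'-hydroxylase, was at 10.9, 12.1 and 11.1 CPM and then at 38.3, 29.3 and 29.1 CPM (log2FC 1.5, adjusted p = 0.000508). The 4-coumarate:CoA ligase gene 4CL3, which feeds the pathway, rose by 1.23 in log2FC (adjusted p = 0.000116), CHI by 1.17, F3H by 0.97 and CHIL by 0.92.

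The enzymes of the anthocyanin branch were not among the calls. DFR was at 8.75, 9.91 and 8.01 CPM in HRFR and at 3.67, 5.88 and 6.44 CPM after 25 h (log2FC -0.73, adjusted p = 0.142). LDOX was at 7.63, 9.18 and 7.68 CPM and then at 5.12, 4.73 and 6.44 CPM (log2FC -0.59, adjusted p = 0.188). In both the 25 h libraries were the lower ones, and neither passed the test. Among 10 tested MYB and bHLH regulators of the pathway a single gene was called, MYBL2, a small MYB that represses anthocyanin genes. MYBL2 was at 13.8, 15.4 and 19.2 CPM in HRFR and at 4.3, 4.21 and 6.25 CPM after 25 h, without overlap (log2FC -1.71, SE 0.25, adjusted p = 0.000946). The flavonol regulator MYB12 had a log2FC of 0.42 (adjusted p = 0.232) and MYB111 of 0.34 (adjusted p = 0.676).

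The promoters of 3 called enzymes and of 3 called lower genes are printed. The enzymes were picked for holding the palindrome CACGTG, the G-box that PIFs and bZIP factors such as HY5 bind, and the other 4 of the 7 called enzymes (CHI, TT7, FLS1 and 4CL3) had none in this window. MYBL2, TPS11 and SEN1 were picked as called lower genes with at least 1 of the motifs marked in them, and MYBL2 was the 1 gene called of its list. Each sequence is the 300 bases upstream of the annotated gene start in RefSeq TAIR10.1, read 5' to 3' on the gene's strand. In CHS (chr5:4488176-4488475, plus strand), F3H (chr3:19024892-19025191, plus strand) and CHIL (chr5:1562986-1563285, plus strand) capitals mark CACGTG.
CHS: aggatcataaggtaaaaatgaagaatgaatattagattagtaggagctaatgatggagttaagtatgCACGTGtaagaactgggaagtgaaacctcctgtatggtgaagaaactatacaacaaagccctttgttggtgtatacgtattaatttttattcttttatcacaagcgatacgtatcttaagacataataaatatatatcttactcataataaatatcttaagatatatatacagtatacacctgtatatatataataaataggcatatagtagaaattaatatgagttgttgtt
F3H: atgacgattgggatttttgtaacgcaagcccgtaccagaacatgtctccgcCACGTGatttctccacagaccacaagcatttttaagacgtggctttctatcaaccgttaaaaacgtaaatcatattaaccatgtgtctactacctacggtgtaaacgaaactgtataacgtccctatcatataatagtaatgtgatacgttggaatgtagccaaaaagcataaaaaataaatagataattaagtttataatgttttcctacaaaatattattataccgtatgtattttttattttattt
CHIL: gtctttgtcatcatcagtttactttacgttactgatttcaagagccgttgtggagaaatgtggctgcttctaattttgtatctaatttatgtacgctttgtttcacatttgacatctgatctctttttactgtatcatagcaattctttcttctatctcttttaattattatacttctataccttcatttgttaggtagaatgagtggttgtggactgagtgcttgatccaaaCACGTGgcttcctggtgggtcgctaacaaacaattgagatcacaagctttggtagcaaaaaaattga
In MYBL2 (chr1:26796533-26796832, minus strand), TPS11 (chr2:8108598-8108897, plus strand) and SEN1 (chr4:16944578-16944877, plus strand) capitals mark GATAAG, the core of the I-box family of light-related motifs, and AATATCT, the evening element of clock-regulated genes, each on either strand.
MYBL2: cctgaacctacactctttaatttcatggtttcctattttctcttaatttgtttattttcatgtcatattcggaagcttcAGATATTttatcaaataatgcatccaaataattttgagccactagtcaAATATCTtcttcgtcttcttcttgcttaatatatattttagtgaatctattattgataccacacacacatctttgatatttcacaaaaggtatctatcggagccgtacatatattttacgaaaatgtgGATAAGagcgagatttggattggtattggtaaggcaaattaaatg
TPS11: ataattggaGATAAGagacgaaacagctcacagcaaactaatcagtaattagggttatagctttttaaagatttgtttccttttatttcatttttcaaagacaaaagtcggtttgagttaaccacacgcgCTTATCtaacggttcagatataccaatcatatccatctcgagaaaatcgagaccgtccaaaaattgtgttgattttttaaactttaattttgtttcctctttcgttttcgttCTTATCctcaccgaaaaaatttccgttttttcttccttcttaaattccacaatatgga
SEN1: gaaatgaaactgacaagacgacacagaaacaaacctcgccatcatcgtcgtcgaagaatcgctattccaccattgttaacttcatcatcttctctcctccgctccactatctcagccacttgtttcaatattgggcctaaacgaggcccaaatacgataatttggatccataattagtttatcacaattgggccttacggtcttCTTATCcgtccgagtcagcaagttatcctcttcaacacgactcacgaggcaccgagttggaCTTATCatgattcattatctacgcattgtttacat

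The G-box began 233 bases before the gene start in CHS, 249 in F3H and 67 in CHIL. Over all called genes CACGTG stood in 9.88% of the 81 promoters of genes called up and in 2.47% of the 81 promoters available for genes called down, against 7.96% of the 20566 promoters of tested genes. GATAAG (reverse complement CTTATC) stood in 18.5% of the promoters of genes called up, 25.9% of those of genes called down and 14.6% of all. AATATCT (reverse complement AGATATT) stood in 13.6%, 22.2% and 11.8%. GACGTG (reverse complement CACGTC), which shares its ACGTG core with the G-box, stood in 13.6%, 8.64% and 6.99%. CATGTG, the PIF-binding E-box (reverse complement CACATG), stood in 14.8%, 13.6% and 13.1%, and CCGAC (reverse complement GTCGG), the cold-response core, in 13.6%, 11.1% and 14.8%. Motifs were searched on both strands and could overlap, and a match describes letters only.

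Of 113 tested genes annotated as UDP-glycosyltransferases, a tally made after values were seen, 6 were called up and 2 down, with a median log2FC of -0.03. Over all tested genes 0.392% were called up and 0.397% down. UGT84A1, a glucosyltransferase of hydroxycinnamic acids such as sinapate, was at 5.72, 6.12 and 7.09 CPM in HRFR and at 26.9, 20.7 and 17.3 CPM after 25 h (log2FC 1.78, SE 0.23, adjusted p = 0.000314). AT2G22590, annotated as a UDP-glycosyltransferase, was at 4.54, 3.79 and 4.74 CPM and then at 18.3, 18.8 and 13.6 CPM (log2FC 1.96, SE 0.20, adjusted p = 3.18e-05). Neither gene's groups overlapped. AT5G17040 (1.25), AT1G06000 (0.95), AT4G27570 (1.51) and AT4G27560 (0.84) were the others called up, and UGT85A1 (-0.68) and UGT85A4 (-0.64) were called down. The flavonol glycosyltransferase UGT78D2 was at 53.7, 51.0 and 53.1 CPM and then at 77.2, 74.8 and 71.1 CPM. Its log2FC of 0.50 (adjusted p = 7.46e-05) stayed under the fold threshold. That log2FC was also lower than in Col-0 by the test of whether the genotypes' responses differ (the interaction, below). RHM1, which makes UDP-rhamnose for such sugars, was at 194, 192 and 187 CPM and then at 360, 347 and 322 CPM (log2FC 0.84, SE 0.10, adjusted p = 0.00013).

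**Figure D3:**
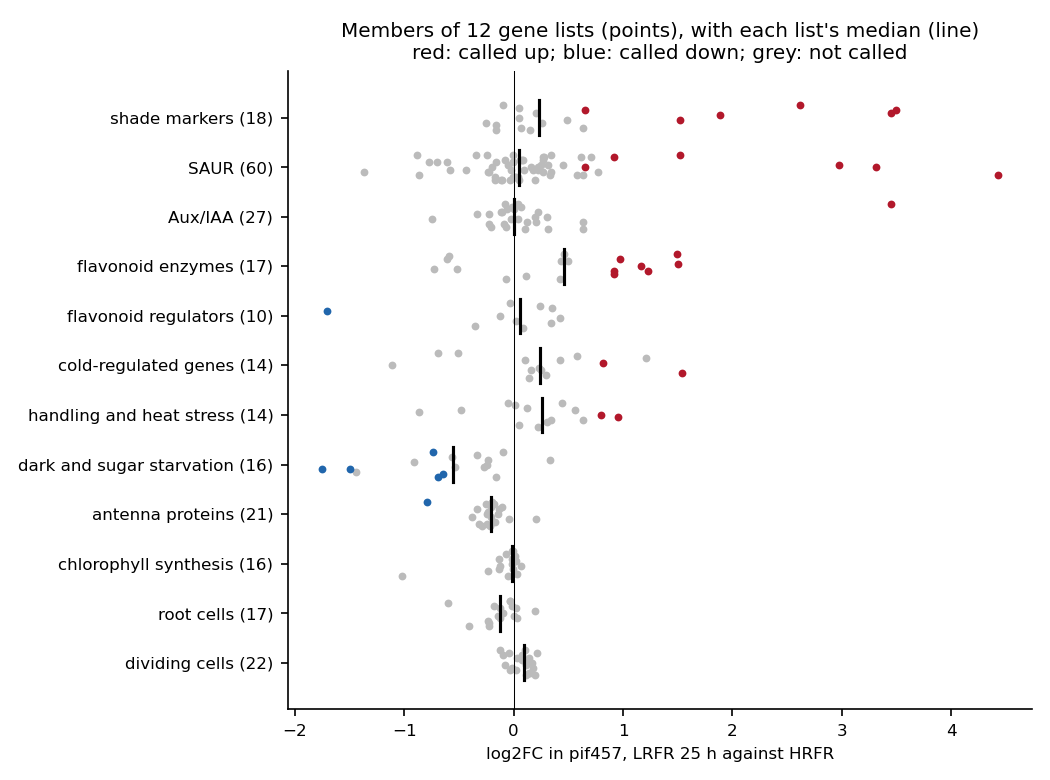
Log2FC of pif457 LRFR 25 h against HRFR for each tested member of 12 gene lists, 1 row per list and 1 point per gene, with genes called up in red, called down in blue, not called in grey and the list median as a line. The flavonoid enzymes lie mostly to the right (median 0.46, 7 called up) and the dark and sugar starvation genes mostly to the left (median -0.55, 5 called down). The medians of the other lists drawn run from -0.21 (antenna proteins) to 0.26 (handling and heat stress), against -0.008 over all genes.

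Genes that plants induce in darkness or when sugars run short fell. Of 16 tested genes of this list, 5 were called down and none up, where 0.397% of all tested genes were called down. In 15 of the 16 the log2FC was below 0, and the median was -0.55, against -0.008 over all genes. Their summed level was 384 to 410 CPM in HRFR and 261 to 319 CPM after 25 h. BCAT2, a branched-chain amino acid aminotransferase, was at 3.35, 2.86 and 1.84 CPM in HRFR and at 0.482, 0.788 and 1.08 CPM after 25 h (log2FC -1.75, SE 0.34, adjusted p = 0.0106). MCCA, a subunit of the methylcrotonyl-CoA carboxylase of leucine breakdown, was at 24.4, 21.6 and 23.3 CPM and then at 13.4, 13.8 and 14.4 CPM (log2FC -0.73, SE 0.09, adjusted p = 0.000237). In both the 25 h libraries were all below the HRFR libraries.

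SEN1, a classic dark-induced senescence marker, was at 5.69, 11.8 and 5.14 CPM in HRFR and at 2.00, 2.21 and 3.74 CPM after 25 h (log2FC -1.5, SE 0.35, adjusted p = 0.0337). R2 was the high HRFR library, and the groups did not overlap. DIN10, a raffinose synthase-like gene, was at 101, 106 and 100 CPM and then at 49.3, 58.5 and 81.7 CPM (log2FC -0.69, adjusted p = 0.0163). TPS11, a trehalose-phosphate synthase-like regulator gene that sugar depletion raises, was at 23.4, 24.3 and 23.3 CPM and then at 15.1, 15.5 and 14.9 CPM (log2FC -0.64, SE 0.08, adjusted p = 0.000564). Its relative TPS8 (-0.56, adjusted p = 0.000747) and AKINBETA1 (-0.54, adjusted p = 0.000907), a subunit of the SnRK1 energy-sensing kinase, passed the test but not the fold. ASN1, the dark-induced asparagine synthetase, ranged from 6.28 to 13.6 CPM in HRFR and from 2.45 to 4.86 CPM after 25 h (log2FC -1.44, adjusted p = 0.129). The number called was 2 without pif457 LRFR 25 h R1 or without R2, 3 without pif457 HRFR R1 or without R2, 4 without HRFR R3 and 6 without 25 h R3. SEN1, BCAT2 and DIN10 each lost the call in 3 to 5 of these, with adjusted p of up to 0.222, 0.0732 and 0.11, while MCCA kept it throughout.

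Few light harvesting and nitrogen genes were called. The antenna proteins bind most of the chlorophyll of the photosystems. Of 21 tested antenna genes 1 was called, LHCB1.4 (chr2:14524607-14525918), where 0.397% of all tested genes were called down. Yet 20 of the 21 had a log2FC below 0 (median -0.21, against -0.008 over all genes). The summed level of the antenna genes was 80160 to 87330 CPM in HRFR and 68460 to 71650 CPM after 25 h. LHCB1.4 was at 2348, 2098 and 2431 CPM and then at 1295, 1230 and 1441 CPM, without overlap (log2FC -0.79, SE 0.16, adjusted p = 0.0139). The LHCB1 genes are close copies of each other, and the call of LHCB1.4 was lost without pif457 HRFR R1 or R3 or without 25 h R1 or R2 (adjusted p up to 0.101). None of 16 chlorophyll synthesis genes was called, where 0.788% of all tested genes were. CRD1, a cyclase subunit of that pathway, was at 2638 to 2920.0 CPM in HRFR and at 2841 to 2874 CPM after 25 h.

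NIA1, a nitrate reductase, was at 148, 146 and 173 CPM in HRFR and at 75.6, 61.9 and 86.0 CPM after 25 h. The groups were apart (log2FC -1.06, SE 0.19, adjusted p = 0.00477), and it was the 1 gene called of 13 of nitrate assimilation, whose median log2FC was -0.11. BXL1, a cell wall beta-xylosidase, was at 203, 205 and 208 CPM and then at 96.2, 95.3 and 110 CPM (log2FC -1.03, SE 0.11, adjusted p = 7.46e-05). Here as well the groups did not overlap. PGL1, a 6-phosphogluconolactonase gene, fell by 1.57 on the log2 scale (adjusted p = 0.00164), AT4G36850, a PQ-loop membrane protein gene, by 1.49 (adjusted p = 0.000535), AT2G33830, annotated as dormancy and auxin associated, by 1.49 (adjusted p = 0.00203), and AT1G29720, a leucine-rich repeat kinase gene, by 1.25 (adjusted p = 0.000537).

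Single genes of hormone, clock and flowering lists were called. FT, the mobile flowering signal, was at 0.0329, 0.233 and 0.147 CPM in HRFR and at 1.48, 1.91 and 1.76 CPM after 25 h, on 12 and 160 reads. All 25 h libraries were higher (log2FC 3.61, SE 0.75, adjusted p = 0.0165), but the call was lost without any 1 HRFR library or without 25 h R2 (adjusted p up to 0.102). FLP1, annotated as a flowering-promoting factor-like gene, was at 0.263, 0.0997 and 0.0735 CPM and then at 1.34, 1.18 and 1.08 CPM (log2FC 2.98, SE 0.42, adjusted p = 0.000691). FT was the 1 gene called of 19 flowering time genes, whose median was 0.02. ELF4, a component of the clock's evening complex, was at 1.45, 1.46 and 1.62 CPM and then at 3.6, 4.06 and 3.62 CPM, without overlap (log2FC 1.32, SE 0.20, adjusted p = 0.00165), and was the 1 gene called of 17 clock genes.

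GA3OX2, which makes active gibberellin, was at 6.58, 7.41 and 6.94 CPM in HRFR and at 12.4, 11.8 and 10.5 CPM after 25 h (log2FC 0.73, SE 0.13, adjusted p = 0.00513). NIT1, a nitrilase, was at 525, 489 and 473 CPM and then at 1177, 1158 and 1179 CPM (log2FC 1.24, SE 0.11, adjusted p = 4.52e-06). In both every 25 h library was above every HRFR library. LOX2, a chloroplast lipoxygenase of jasmonate synthesis, was at 48.0, 46.0 and 33.5 CPM and then at 77.0, 80.0 and 97.0 CPM (log2FC 0.99, adjusted p = 0.0325); its call was lost with any 1 of the 6 libraries left out (adjusted p up to 0.177). GH3.9, annotated as an indole-3-acetic acid-amido synthetase and not in the auxin list, was called down (log2FC -0.85, adjusted p = 0.00977). No gene was called among 17 listed for auxin synthesis and inactivation, 12 of brassinosteroid metabolism, 15 of cytokinin oxidation and type-A regulators, 11 of salicylate defence or 17 of iron supply. With 0.788% of all tested genes called, lists of this size can hold no call without differing from other genes. PHYB, the receptor, rose within the fold limit, from 100.1, 95.1 and 99.1 CPM to 135, 128 and 132 CPM (log2FC 0.43, adjusted p = 0.00707).

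A few genes of cold and of heat protection were called up. KIN1, a small cold-induced protein gene, was at 2.24, 2.19 and 3.89 CPM in HRFR and at 10.3, 7.18 and 6.71 CPM after 25 h (log2FC 1.54, SE 0.33, adjusted p = 0.0216). Its neighbour KIN2 was at 37.9, 39.4 and 44.0 CPM and then at 73.8, 74.3 and 65.8 CPM (log2FC 0.82, SE 0.13, adjusted p = 0.00159). The groups of both were apart, and they were the 2 genes called of 14 tested cold-regulated genes (median log2FC 0.24). Of all tested genes 0.392% were called up. Without pif457 HRFR R1 or R2, or without 25 h R1 or R2, 1 was called, and KIN1 lost its call (adjusted p up to 0.13). The chaperone HSP70 was at 80.3, 88.1 and 73.5 CPM and then at 159, 133 and 129 CPM, without overlap (log2FC 0.80, SE 0.13, adjusted p = 0.00203). HSP70 and the heat shock factor HSFA2 (log2FC 0.95, adjusted p = 0.0436) were the 2 called of 14 handling and heat stress genes, whose summed level was 225 to 264 CPM in HRFR and 287 to 346 CPM after 25 h. The HSFA2 call was lost with any 1 of the 6 libraries left out (adjusted p up to 0.294), so that 1 gene of this list was called then, and its part in the other results was not tested.

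After 1 h of LRFR 3 shade markers and 6 SAUR genes were called up, and no flavonoid enzyme or starvation gene was called in either direction. After 1 h 20 genes were called up and 0 down in pif457 (0.0967% and 0% of genes tested, with 1051 genes at an unadjusted p below 0.05 and 32 called up and 2 down by DESeq2), and between 25 h and 1 h 95 were higher and 128 lower (0.459% and 0.619%). The latter 223 became 120, 130 and 134 without pif457 LRFR 25 h R2, LRFR 25 h R1 and LRFR 1 h R2, and 352 without both outlying Col-0 libraries. These comparisons share libraries with the 25 h response, so their values are only set side by side. ATHB2 was at 17.8, 18.2 and 21.4 CPM after 1 h, a log2FC of 2.1 against HRFR, and the difference of 25 h from 1 h was -0.22 (adjusted p = 0.38). PIL1 was at 1.08, 0.825 and 1.53 CPM after 1 h, between the HRFR and the 25 h libraries, and rose further by 1.4 in log2FC from 1 h to 25 h (adjusted p = 0.00585). HFR1, at 7.32, 9 and 7.32 CPM after 1 h, rose further by 1.03 (adjusted p = 0.00323) and IAA29 by 1.11 (adjusted p = 0.00439).

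The SAUR cluster was already high after 1 h. SAUR22 was at 2.71, 3.55 and 2.82 CPM after 1 h and passed the test for a further rise to 25 h (log2FC 0.79, adjusted p = 0.0206). SAUR20 moved the other way, from 22.7, 24.9 and 24.3 CPM after 1 h to 16.5, 16.8 and 17.0 CPM after 25 h, the last still above its HRFR level of 7.75 to 9.87 CPM. The difference between the times was -0.52 in log2FC (adjusted p = 0.00867), within the fold limit. NIT1 showed a stepwise rise, from 804, 805 and 817 CPM after 1 h to the 25 h values given above (log2FC 0.53 between the times, adjusted p = 0.00889).

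FLS1 and CHS were near their HRFR levels after 1 h. FLS1 was at 82.2, 69.8 and 67.6 CPM after 1 h, a log2FC of 0.06 against HRFR, and CHS at 596, 552 and 479 CPM, a log2FC of 0.08. The rise from 1 h to 25 h was 1.44 for FLS1 (adjusted p = 0.000276) and 0.84 for CHS (adjusted p = 0.00677), and of the 17 enzymes 7 were called up between the times. For the starvation list 8 of 16 genes were called lower at 25 h than at 1 h. TPS11 was at 29.2, 33.4 and 33.5 CPM after 1 h, above its HRFR libraries (log2FC 0.44, adjusted p = 0.0586), and then fell by 1.08 on the log2 scale to 25 h (adjusted p = 5.58e-06). NIA1 likewise had a log2FC of 0.73 after 1 h that did not pass the test (adjusted p = 0.281) and lay 1.79 lower at 25 h than at 1 h (log2FC -1.79, adjusted p = 5.04e-05).

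**Figure D4:**
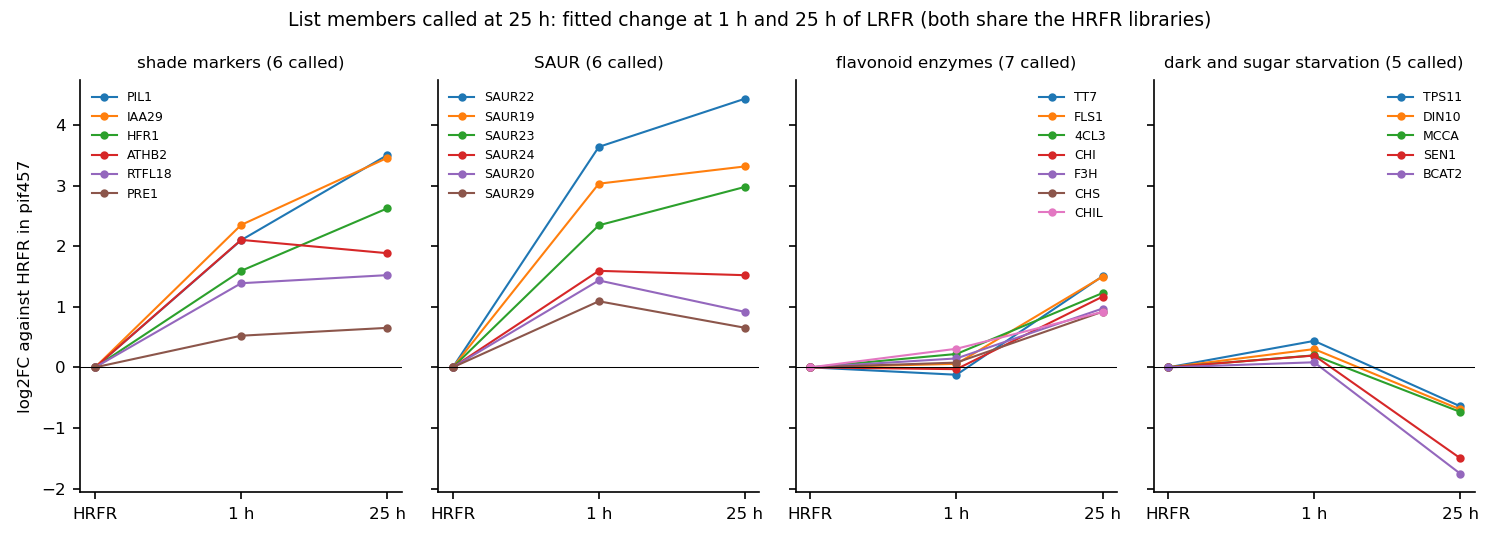
Fitted log2FC against HRFR in pif457 (vertical axis) for the 3 light conditions in order of duration (horizontal axis, not to scale), 1 line per gene, for the members of the shade marker, SAUR, flavonoid enzyme and starvation lists that were called at 25 h. Both times share the HRFR libraries. After 1 h ATHB2 is at 2.1, FLS1 at 0.06 and TPS11 at 0.44, the last then falling to -0.64 at 25 h.

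Most of what was called in pif457 after 25 h was also called in Col-0, whose libraries are separate. In Col-0 480 genes were called up and 315 down (2.32% and 1.52% of genes tested, together 3.84%). Of the 81 genes called up in pif457, 72 were called up in Col-0, which is 88.9% of the pif457 list and 15% of the Col-0 list. Of the 82 called down, 71 were called down in Col-0, or 86.6% and 22.5% of the lists. Without both Col-0 libraries that lay apart, 71 of the 81 and 72 of the 82 were called the same way, of 478 and 339 Col-0 calls. The median log2FC of the genes called up in pif457 was 1.00 in pif457 and 1.32 in Col-0, and of those called down -0.79 and -1.09. Taken from the other side, the genes called in Col-0 had medians of 0.94 and -0.89 there and of 0.41 and -0.49 in pif457.

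Genes called in pif457 without a call in the same direction in Col-0 were 9 up and 11 down, among the latter ACS4, which was called up in Col-0. CML11, a calmodulin-like gene (log2FC 0.93 in pif457 and 0.38 in Col-0), ZPR1 (1.00 and 0.52), CYP735A2, which makes trans-zeatin cytokinins (1.02 and 0.58), the internal auxin carrier gene PIN5 (1.17 and 0.79) and LOX2 (0.99 and 0.60) were among those that were up. BCAT2 (-1.75 and -0.71) and SEN1 (-1.5 and -0.75) were among those that were down. For each of these 7 the interaction was not called (adjusted p from 0.754 to 0.999), so a difference between the genotypes was not shown.

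The response of pif457 differed from that of Col-0 by the interaction test at 48 genes (0.232% of genes tested), of which 40 (0.193%) had a lower log2FC in pif457 and 8 (0.0387%) a higher one. Among the 40 were 34 genes called up in Col-0, and among the 8 were 8 called down in Col-0. The count was 20 without pif457 HRFR R1, 22 and 30 without Col-0 HRFR R2 and R3, 25, 26 and 24 without pif457 LRFR 25 h R1, R2 and R3, 117 without Col-0 LRFR 25 h R1 and 108 without both outlying Col-0 libraries. It was 146 with DESeq2. Of the 18 shade markers 4 were in it, HAT2 (-1.17, adjusted p = 0.000851), YUC8 (-2.13, adjusted p = 0.00975), YUC9 and CKX5, all lower. Of the 17 tested flavonoid enzymes 1 was in it, UGT78D2, also lower.

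ACS4, a 1-aminocyclopropane-1-carboxylate synthase that starts ethylene synthesis, moved in opposite directions. In pif457 it was at 1.58, 1.5 and 1.06 CPM in HRFR and at 0.557, 0.394 and 0.464 CPM after 25 h, and in Col-0 at 0.398, 0.668 and 0.363 CPM and then at 4.42, 3.08 and 5.22 CPM. The pif457 groups were apart with the treated libraries lower, the Col-0 groups apart with the treated libraries higher. ACS4 was already higher in pif457 than in Col-0 in HRFR (log2FC 1.56, edgeR adjusted p = 0.0182). The interaction was -4.74 (SE 0.42, adjusted p = 6.63e-05) and was called in each alternative run, while the fall within pif457 (log2FC -1.56, adjusted p = 0.0134) lost its call without HRFR R1 or R2 or without 25 h R2 or R3 (adjusted p up to 0.0972). No other gene of 11 tested for ethylene synthesis was called in pif457.

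CKX5 showed the other common form, a rise in Col-0 with no called change in pif457. It was at 0.987, 1.63 and 1.65 CPM in pif457 HRFR and at 2.08, 1.54 and 1.33 CPM after 25 h, with overlapping groups. In Col-0 it went from 1.56, 1.53 and 1.26 CPM to 17.1, 11.8 and 12.1 CPM (interaction -3.02, SE 0.37, adjusted p = 0.00176). ST2A, a sulfotransferase of hydroxyjasmonate, was at 1.45, 1.4 and 1.29 CPM and then at 0.965, 1.12 and 1.42 CPM in pif457, against 0.918, 1.34 and 1.39 CPM and then 20.5, 11.3 and 10.13 CPM in Col-0. Its interaction was -3.76 (SE 0.42, adjusted p = 0.000851).

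Among the genes with a higher log2FC in pif457, LHCB1.4 fell in both genotypes, by 0.79 on the log2 scale in pif457 and by 2.23 in Col-0, where it went from 2661, 2778 and 3304 CPM to 444, 731 and 687 CPM. The interaction was 1.44 (SE 0.22, adjusted p = 0.0102). PORB, a light-dependent protochlorophyllide oxidoreductase of chlorophyll synthesis, was at 52.7, 59.8 and 62.9 CPM in pif457 HRFR and at 55.3, 62.7 and 60.0 CPM after 25 h. These groups overlapped (log2FC 0.02). In Col-0 PORB went from 77.1, 101.6 and 103.1 CPM to 26.5, 45.2 and 33.8 CPM, a fall of 1.42 on the log2 scale (interaction 1.44, SE 0.21, adjusted p = 0.0059). PORB was already lower in pif457 than in Col-0 in HRFR (log2FC -0.68, edgeR adjusted p = 0.0286), so the genotypes did not start from equal levels. PHYB rose in both and by less in pif457 (0.43 against 0.99, interaction -0.57, adjusted p = 0.0424), a difference that was lost in 11 of the runs with 1 library left out (adjusted p up to 0.171). For PIL1, IAA29, HFR1, ATHB2, FLS1 and CHS the interaction was below 0 (-1.61, -1.06, -0.57, -0.71, -0.46 and -0.72) and not called, with adjusted p from 0.141 to 0.957.

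**Figure D5:**
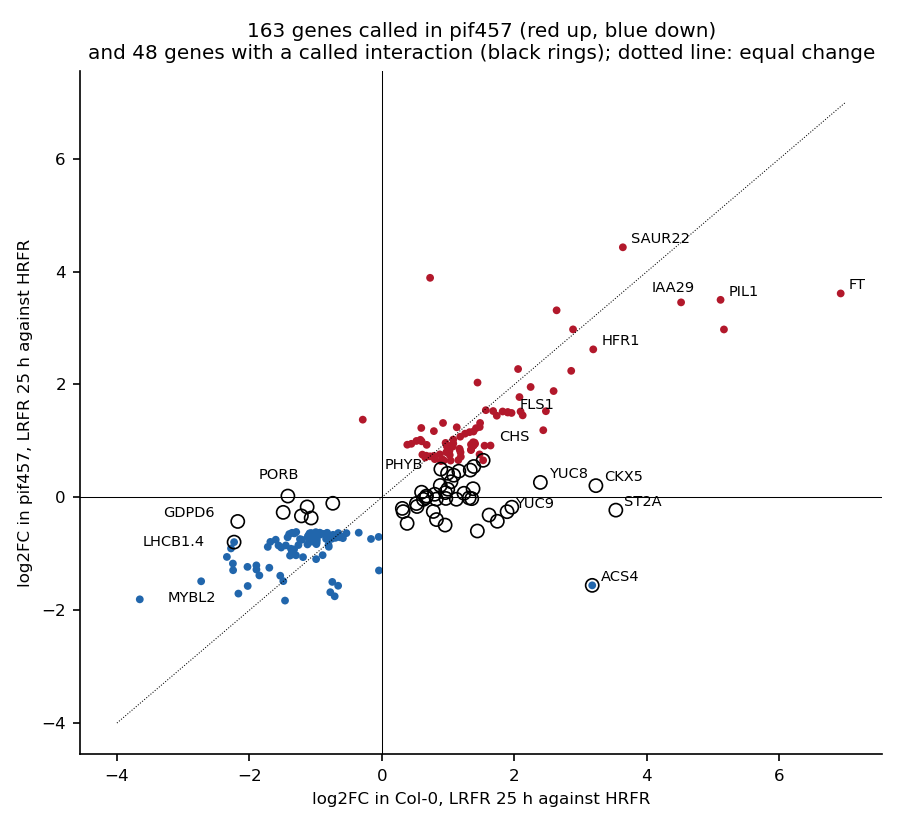
Log2FC after 25 h of LRFR in pif457 (vertical axis) against that in Col-0 (horizontal axis) for the 163 genes called in pif457 (red up, blue down) and the 48 genes with a called interaction (black rings), with equal change on the dotted line. Most red and blue points lie in the quadrants where both genotypes moved the same way, ACS4 is the blue point on the right (-1.56 and 3.18), and the rings lie mostly near 0 in pif457.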

How the data were processed

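RNA-seq libraries were made with the Illumina Stranded mRNA Prep from total RNA of seedlings. The authors' processing notes name cutadapt, STAR, HTSeq and TAIR10; which versions were run, and whether HTSeq counted by strand, is not given in the sources used here, so reads of a gene and an antisense partner may not be separable. The deposited table holds raw read counts per gene for 34262 genes, the authors' HTSeq counts without normalisation. The 5 HTSeq summary lines (6.44 to 7.09% of reads) entered neither library sizes nor tests. Library depth in genes was 24.9 M to 33.7 M reads (M, 1e6) over the 18 libraries fitted, and the common biological coefficient of variation was 0.101.

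Counts of Col-0 and pif457 (6 groups, 18 libraries, 12 residual degrees of freedom) were fitted together in edgeR 4.0.16 (R 4.3.3, limma 3.58.1) with TMM factors (0.918 to 1.08), filterByExpr, group means and the quasi-likelihood F-test, adjusted by Benjamini-Hochberg over 20680 genes. Light comparisons were called at adjusted p below 0.05 and log2FC beyond 0.6, as the study's methods set, and the interaction and the genotype comparison at adjusted p below 0.05 alone. The study used DESeq2, which was run as an alternative (version 1.42.0). Intervals are 95%. Replicates are separate libraries, and p-values rest on the spread between replicates estimated over all 6 groups. The test of pif457 at 25 h against HRFR thus also carries the spread of Col-0, outlying libraries included. With its 6 libraries fitted alone 321 genes were called in place of 163. No 2 libraries of a group agreed within sampling noise (chi-square per degree of freedom 2.78 or more).

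Same-numbered pif457 libraries did not deviate together (correlations -0.014, 0.069 and -0.060 between HRFR and 25 h), whereas Col-0 libraries did (0.633, 0.313 and 0.283), as did HRFR libraries of the 2 genotypes (0.241, 0.102 and 0.150). In Col-0 R2 and R3 also correlated across numbers (0.217 and 0.325), so R1 stood apart rather than each number. The block moved no count of genes called by over 1.5 times. Other alternatives were RLE size factors, no filter or a filter of 1 CPM in 3 libraries, only the groups compared, all 27 libraries, the replicate number as a block, other fold thresholds, and each replicate left out. A run without the outlying R1 libraries of Col-0 HRFR and Col-0 LRFR 25 h was chosen after seeing the data. Members and lists were chosen with earlier results of these data known. Named genes were PIF4, PIF5 and PIF7, the 15 largest and 15 smallest called log2FC without overlap at 1 CPM or more in the higher group, called list members (the 4 largest where more were called, or the 2 most abundant where none was), the 6 most positive and 6 most negative called interactions, and the 6 most abundant called genes in each direction; other names were chosen after their values were seen. Symbols, annotations and promoters came from RefSeq TAIR10.1, which matched 95.0% of the gene identifiers; gene lists were matched by symbol, synonym or locus. On simulated counts for 20680 genes the 25 h comparison recovered 35.8% of genes changed 1.5-fold, 91.0% changed 2-fold and 100% changed 4-fold, with 4 false calls. A 1.5-fold change lies below the log2FC threshold of 0.6, so its low recovery was set by that threshold and does not measure power. Changes were simulated in pif457 LRFR 25 h alone, in genes averaging at least 1 CPM. All other groups shared the same mean, and no library was made to lie apart. Figures were drawn with matplotlib 3.10.9 in Python 3.11.15. The hfr1-101 libraries entered the 27-library run only.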

Additional observations from a re-analysis of the deposited data

Results flagged for a closer look

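The response to 25 h of LRFR differed between pif457 and Col-0 by the interaction test at 48 genes, and within pif457 the levels at 25 h differed from those at 1 h at 223 genes. Lower in pif457 by that interaction (log2FC of pif457 minus log2FC of Col-0) were ACS4 (-4.74), ST2A (-3.76), CKX5 (-3.02), AT3G42800 (-2.17), YUC9 (-2.14), AT5G02540 (-2.14), PIF8 (-0.66) and PHYB (-0.57). Higher were GDPD6, a phosphodiesterase gene (1.75), PORB (1.44), LHCB1.4 (1.44), AT1G63860, a disease resistance protein gene (1.22), AT5G03350, a lectin gene (0.96), and FUM2, a fumarase (0.89).

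PIF8, a member of the PIF family that is not mutated here, was at 85.4, 79.7 and 80.1 CPM in pif457 HRFR and at 80.8, 78.5 and 79.8 CPM after 25 h, while its log2FC in Col-0 was 0.63 (adjusted p = 5.24e-06); its interaction had an adjusted p of 0.00321 in edgeR. Of these 14 genes 6 kept the interaction call in every alternative run and 8 lost it in at least 1 (YUC9, AT1G63860, PHYB, AT3G42800, AT5G02540, AT5G03350, GDPD6 and FUM2).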

How the results depend on the processing

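The number of genes called in pif457 at 25 h against HRFR was 163, and it was 321 (159 up, 162 down) with only the groups compared, 245 without both outlying Col-0 libraries, 367 without a fold threshold, 66 at log2FC above 1, and 98 to 152 with 1 library left out. The Col-0 count (795) was 416, 2003 and 335 with only the groups compared, no fold threshold and log2FC above 1, and 716 to 973 with 1 library left out. The interaction (48) gave 146 with DESeq2, 96 with 27 libraries, 108 without the outlying libraries, 21 at log2FC above 1, and 20 to 117 with 1 left out. The count at 1 h (20) was 34 with DESeq2, 35 with only the groups compared, 31 with 27 libraries, and 16 to 19 with 1 left out. The 25 h against 1 h count (223) was 410, 352, 594 and 73 with only the groups compared, without the outlying libraries, without a fold threshold and at log2FC above 1, and 120 to 196 with 1 left out. The genotypes in HRFR (354) differed at 804 genes with DESeq2, 563 with 27 libraries, 228 with only the groups compared, 174 and 80 at log2FC above 0.6 and 1, and 94 to 356 with 1 left out. Fewer libraries or another fold limit are by construction other tests; for the other settings the cause was not tested. The replicate block gave 181, 833, 70, 22, 258 and 500 genes in this order of comparisons; pif457 HRFR and 25 h libraries share only a number. Of 55 named called genes 39 kept the call in every alternative and 16 lost it in at least 1, XTH25 and ATMG01360 also with the block. Uncalled genes near 0 changed sign with 1 library left out: PIF8 (-0.0539 to 0.0103), PORB (-0.0339 to 0.0774), ACD2 (-0.0661 to 0.0243), GUN5 (-0.039 to 0.0347), NPR1 (-0.00661 to 0.0549), CRD1 (-0.00813 to 0.0776), OST1 (-0.018 to 0.0646), CPD (-0.00285 to 0.0869), VAS1 (-0.0201 to 0.0681) and CYP83A1 (-0.0412 to 0.055). Below about 1 CPM the values rest on few reads, 12 for FT in HRFR.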

Other observations

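The genes APR1, APR2 and APR3, which encode adenylylsulfate reductases of sulfate assimilation, were not on a list and were chosen after their values were seen. All 3 had a called interaction. APR2 was at 265, 236 and 225 CPM in pif457 HRFR and at 330.2, 349 and 333 CPM after 25 h, and in Col-0 at 208, 237 and 244 CPM and then at 487, 620 and 630 CPM. The groups were apart in both genotypes, with a log2FC of 0.48 in pif457 and 1.33 in Col-0 (interaction -0.85, adjusted p = 0.0138). APR1 had log2FC of 0.39 and 1.08 (interaction -0.69, adjusted p = 0.0363) and APR3 of 0.46 and 1.16 (interaction -0.70, adjusted p = 0.018), all by edgeR.

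NCED3, the 9-cis-epoxycarotenoid dioxygenase that limits abscisic acid synthesis, was at 2.63, 1.96 and 3.82 CPM in pif457 HRFR and at 6.09, 6.67 and 5.54 CPM after 25 h, without overlap (log2FC 1.13, edgeR adjusted p = 0.0221), against a log2FC of 1.26 in Col-0. COR413IM1, a cold-regulated chloroplast membrane protein gene, was at 0.625, 0.731 and 0.624 CPM and then at 2.08, 2.18 and 1.49 CPM, again without overlap (log2FC 1.53, adjusted p = 0.00879). Both were chosen after their values were seen.

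Some called genes were neighbours on the chromosome. HFR1 and AT1G02350, 1937 bases apart on opposite strands, were both up (log2FC 2.62 and 1.32), KIN1 and KIN2 were 892 bases apart, SAUR22 and SAUR23 692 bases, and AT5G66580 and AT5G66590 537 bases.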
